A study of Mus musculus with 6 samples.

Results

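The 10 genes described here encode the core of the mTOR pathway and its nearest inputs: Mtor, Rptor, Rictor, Rheb, Tsc1, Tsc2, Eif4ebp1, Slc7a5, Slc3a2 and Sesn1. They were chosen by name, as the rows of the expression table whose Ensembl identifier belongs to 1 of these symbols, and all 10 were found among the 39179 genes of the table. RNA-Seq was performed on 6 pools of B cells sorted from the Peyer's patches of the ileum, 3 pools of germinal center (GC) B cells and 3 pools of naive B cells. All cells came from WT C57BL/6 female mice aged 12 weeks, littermates being used, and each pool combined 5 mice. GC B cells were sorted as Fas+GL7+ and naive (resting) B cells as Fas-GL7-, so each population is what its gate collected. The comparison asks which of these genes differ in RNA level between B cells in the GC reaction and resting B cells of the same organ.

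mTOR is a kinase that works in a pair of complexes. In mTORC1 it binds Raptor, drives protein synthesis and growth, and is switched on at the lysosome by the small GTPase Rheb when amino acids are plentiful. In mTORC2 it binds Rictor and phosphorylates AKT. The TSC1-TSC2 complex turns Rheb off, and sestrins hold mTORC1 down when leucine is scarce. Large neutral amino acids, leucine among them, enter lymphocytes through a heterodimer of Slc7a5 and Slc3a2, and GC B cells are known as a rapidly growing and dividing population.

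The deposited values are fragments per kilobase of transcript, scaled to the mapped fragments of the pool (FPKM). They were rescaled here to TPM, transcripts in every 1000000, which is a level per transcript length. Each pool had between 12075 and 12450 genes at 1 TPM or more, at a depth of about 9.7 to 16.2 M reads (M, 1000000) estimated from the steps between low values. The labels matched the markers of the sort. Bcl6, the transcriptional repressor that defines GC B cells, was between 241.8 and 258.0 TPM in GC pools and between 46.9 and 51.6 TPM in naive pools, and Fcer2a, the low-affinity IgE receptor of resting B cells, was between 97.5 and 106.9 TPM in GC pools and between 680.5 and 715.1 TPM in naive pools. Of 7 T cell markers, 6 were under 2 TPM in every pool, as were 4 of 5 myeloid markers and 4 of 5 markers of stroma and endothelium. The exceptions were the kinase Lck, which was higher in GC pools (127.3 to 136.3 TPM against 64.1 to 66.9 TPM), Lyz2, which did not pass and reached 5.28 TPM in a naive pool, and the adhesion molecule Pecam1, which was lower in GC pools (21.9 to 24.3 TPM against 121.0 to 131.8 TPM). Markers of the intestinal epithelium were present, and of 8 tested 6 were lower in GC pools, 1 (Krt19) did not pass and 1 (Krt18, at 2.88 to 3.78 TPM against 1.38 to 2.05 TPM) was higher. The 9 genes summed to between 54.9 and 116.6 TPM in GC pools, highest in GC replicate 2, and to between 141.2 and 181.9 TPM in naive pools. Fabp2, a fatty acid binding protein of enterocytes, was the highest of them, and no epithelial marker was at 0. The 5 B cell markers summed to between 3884 and 3931 TPM in GC pools and to between 5783 and 5913 TPM in naive pools. Among them 4 were lower and 1 (Ms4a1) was higher in GC pools. The plasma cell markers summed to between 766.2 and 801.3 TPM in GC pools and to between 140.0 and 172.8 TPM in naive pools. Of these 4 genes, 2 were higher and 2 lower in GC pools. Jchain made up nearly all of the difference in the sum, and Prdm1, the regulator of plasma cell fate, was higher as well, between 4.69 and 5.22 TPM against 0.862 to 1.07 TPM. Xbp1 was lower, as was Sdc1, a surface proteoglycan of plasma cells, which was under 2 TPM in every GC pool and between 2.62 and 3.66 TPM in naive pools. The part of these cell types in the results that follow was not tested. In sorted bulk RNA, fewer cells of a type and less RNA per cell cannot be told apart.

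Of the 10 genes, 2 were higher in GC B cells (Slc7a5 and Tsc1), 3 were lower (Sesn1, Rictor and Slc3a2) and 5 did not pass the test (Mtor, Rptor, Rheb, Tsc2 and Eif4ebp1). The test was limma on log2(TPM + 1), with Benjamini-Hochberg adjustment over all 12785 genes that had at least 1 TPM in at least 3 pools, and a call required an adjusted p under 0.05. All 10 genes were above that filter. Differences between these populations were common: 65.6% of all genes tested were called, 35.5% as higher and 30.1% as lower in GC B cells, so 5 of 10 is not more than in the table as a whole. The pools of both populations did not overlap for 7 of the 10 genes, against 70.7% of all genes tested. The median log2 difference, GC minus naive, was -0.05 for the 10 genes and 0.03 for all genes tested. Without regard to sign, the median log2 difference was 0.22 for the 10 genes, smaller than the 0.54 of all genes tested. The p-values set each difference against the spread between these pools, which limma draws toward a trend over all genes. Each pool combined 5 mice, so the spread between single mice was not seen. The scale log2(TPM + 1) also understates the change of low genes.

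**Figure D1:**
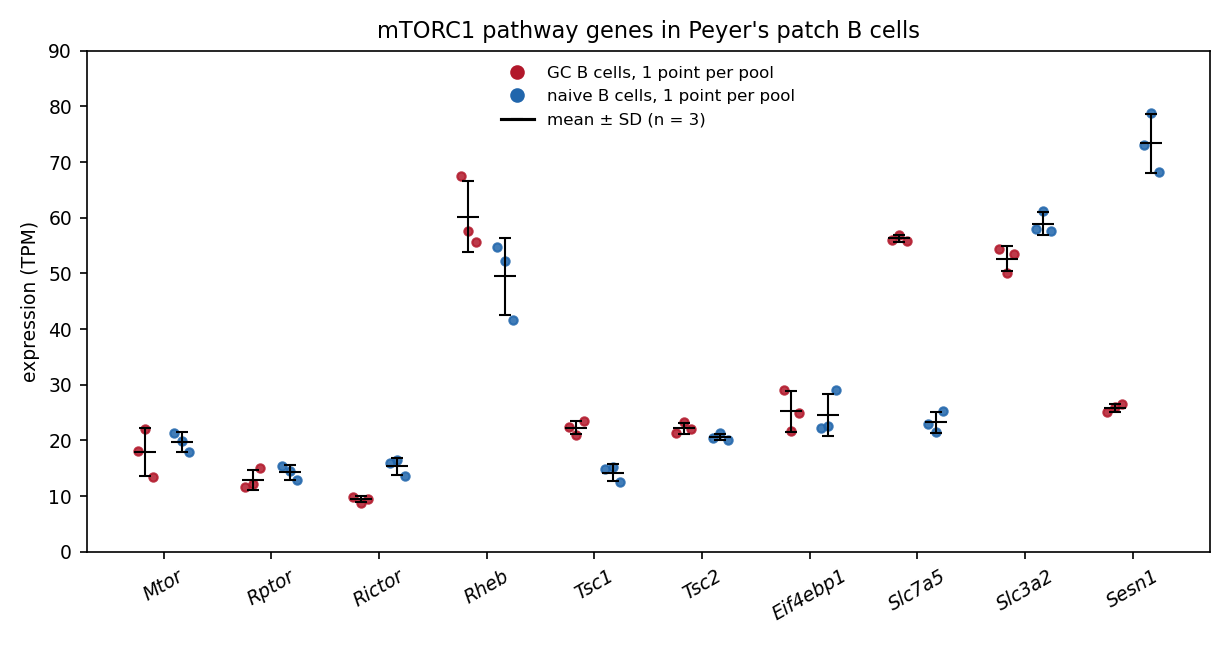
Expression of the 10 genes in TPM on a linear axis starting at 0, with 1 point per pool (GC in red, naive in blue) and the mean ± SD of 3 pools in black. Slc7a5 sits near 56 TPM in the GC pools and near 23 TPM in the naive pools, Sesn1 lies between 25.1 and 26.5 TPM against 68.2 to 78.9 TPM, and the points of Mtor, Rptor and Eif4ebp1 overlap between populations.

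**Figure D2:**
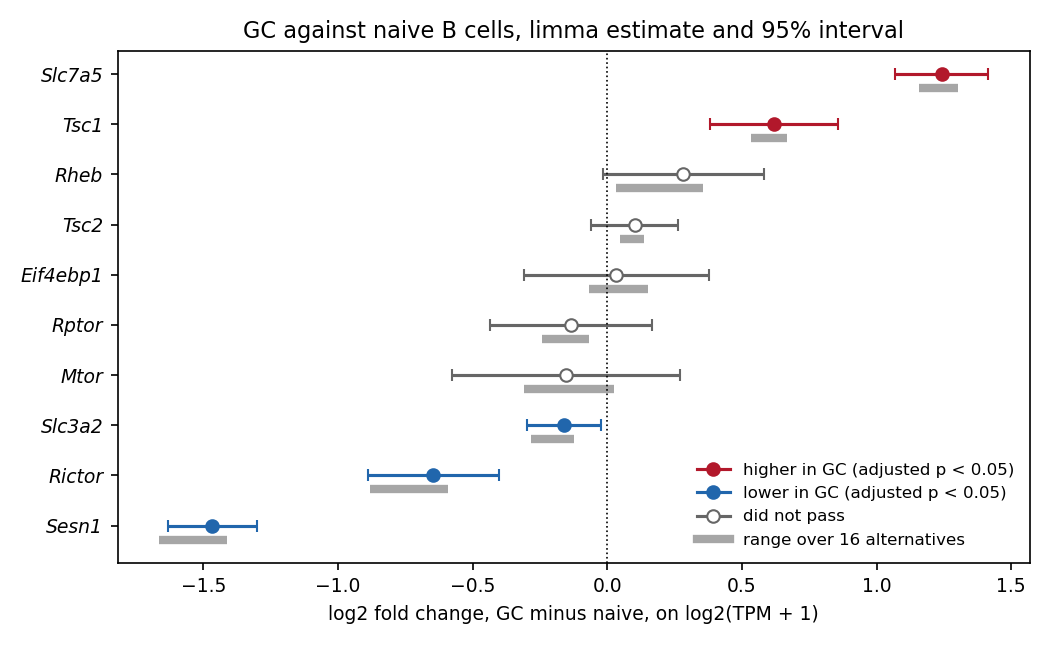
Log2 difference, GC minus naive, for each gene with its 95% interval from limma, and as grey bars the range over 16 alternative ways of processing. Filled points passed an adjusted p of 0.05; the intervals of Slc7a5, Tsc1, Rictor and Sesn1 lie far from 0, that of Slc3a2 ends at -0.02, and the other 5 intervals include 0.

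Mtor, the kinase itself (ENSMUSG00000028991, chr4:148448582-148557685 in GRCm38), was expressed at a similar moderate level in both populations. It measured 18.2, 22.0 and 13.5 TPM in GC replicates 1, 2 and 3 and 21.3, 19.9 and 17.9 TPM in naive replicates 1, 2 and 3. The GC pools spread on both sides of the naive pools. The GC mean of 17.9 ± 4.28 TPM thus compared with a naive mean of 19.7 ± 1.75 TPM (SD, n = 3 each). Their log2 difference was -0.15 (SE 0.18, 95% interval -0.58 to 0.27, limma adjusted p = 0.475), so changes of either sign within that interval remain compatible with these values. Mtor varied more between GC pools than is usual for its level: its coefficient of variation was 23.9%, where the median over genes between 10 and 100 TPM was 6.4% in the GC pools. Without GC replicate 3, its lowest pool, the difference was 0.03.

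Rptor encodes Raptor, the scaffold that recruits substrates to mTORC1 (ENSMUSG00000025583, chr11:119602905-119899591). Its level was 11.6, 12.1 and 15.05 TPM for GC replicates 1 to 3 and 15.5, 14.4 and 12.8 TPM for naive replicates 1 to 3. The populations overlapped, because GC replicate 3 lay above 2 of the naive pools. This gave a log2 difference of -0.14 (SE 0.12, 95% interval -0.44 to 0.17, limma adjusted p = 0.375), which was between -0.24 and -0.07 with 1 pool left out. In the mouse annotation of the older build NCBIM37, 84 of 13471 exon bases of Rptor are shared with a transcript of the opposite strand.

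Rictor, the scaffold of mTORC2 (ENSMUSG00000050310, chr15:6708349-6800401), was lower in GC B cells. Its GC pools had 9.94, 8.86 and 9.56 TPM against 15.9, 16.6 and 13.7 TPM in the naive pools. Every GC pool was below every naive pool, and naive B cells had 1.63-fold more Rictor RNA (9.45 ± 0.547 against 15.4 ± 1.52 TPM, SD, n = 3). On the log2 scale the difference was -0.65 (SE 0.10, 95% interval -0.89 to -0.40, limma adjusted p = 0.00147). It stayed lower in all 16 alternatives, between -0.88 and -0.59.

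Raptor and Rictor bind mTOR in separate complexes, and the ratio of their RNAs within a pool does not depend on the scaling between pools. The Rptor to Rictor ratio of TPM was 1.17, 1.37 and 1.57 in the GC pools and 0.974, 0.871 and 0.939 in the naive pools. It was thus above 1 in each GC pool and below 1 in each naive pool, with a log2 difference of 0.56. An exact two-sided permutation test over the pools gave p = 0.1, which is the smallest p that 3 pools against 3 allow, and p = 0.1 after adjustment over the 5 ratios tested.

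Rheb, the GTPase that activates mTORC1 (ENSMUSG00000028945, chr5:24802823-24842361), was the most abundant of the 10 RNAs in GC B cells. Its values were 67.5, 57.6 and 55.6 TPM in the GC pools and 54.7, 52.15 and 41.7 TPM in the naive pools. All GC pools were above all naive pools, by less than 1 TPM at the closest pair, but the pools of each population also spread widely (60.2 ± 6.35 against 49.5 ± 6.91 TPM, SD, n = 3). The log2 difference of 0.28 did not pass the test (SE 0.12, 95% interval -0.02 to 0.58, limma adjusted p = 0.0866), and it was between 0.17 and 0.36 with 1 pool left out and 0.03 once GC content and transcript length were corrected for. It passed with a block on the replicate number (limma adjusted p = 0.0298), but pools with the same number were not stated to share mice.

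Tsc1 and Tsc2 encode the complex that inactivates Rheb, hamartin as the stabilizing subunit and tuberin as the GTPase-activating one. Tsc1 (ENSMUSG00000026812, chr2:28640993-28691172) was higher in GC B cells, at 22.5, 21.0 and 23.5 TPM against 15.0, 15.2 and 12.5 TPM in naive B cells. The GC pools lay above the naive pools without overlap, by 1.57-fold in the means (22.3 ± 1.25 against 14.2 ± 1.51 TPM, SD, n = 3). Tsc1 differed by 0.62 on the log2 scale (SE 0.10, 95% interval 0.38 to 0.86, limma adjusted p = 0.00161) and was between 0.53 and 0.67 in all 16 alternatives.

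Tsc2 (ENSMUSG00000002496, chr17:24595816-24632676) had values of 21.3, 23.3 and 22.1 TPM across the GC pools, against 20.4, 21.3 and 20.1 TPM across the naive pools. The lowest GC pool, at 21.34 TPM, and the highest naive pool, at 21.30 TPM, were nearly equal. Tsc2 differed by 0.10 on the log2 scale (SE 0.07, 95% interval -0.06 to 0.26, limma adjusted p = 0.221). Tsc2 shares 578 of its 6347 exon bases (9.11%) with Pkd1 on the opposite strand in the NCBIM37 annotation. No source used here states that the libraries kept strand, so reads of these bases cannot be assigned to one gene with certainty. The Tsc1 to Tsc2 ratio was 1.05, 0.902 and 1.06 in the GC pools and 0.732, 0.715 and 0.620 in the naive pools, a log2 difference of 0.55 with no overlap (exact permutation test, p = 0.1 before and after adjustment). Hence the subunits were near equal per length in GC B cells, and Tsc2 was the more abundant in each naive pool.

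Eif4ebp1 encodes 4E-BP1, the repressor of cap-dependent translation that mTORC1 phosphorylates (ENSMUSG00000031490, chr8:27260327-27275656). It measured 29.1, 21.8 and 24.9 TPM in the GC pools and at 22.3, 22.6 and 29.0 TPM in the naive pools. The ranges were almost the same. Its log2 difference was 0.03 (SE 0.14, 95% interval -0.31 to 0.38, limma adjusted p = 0.848), and its sign turned under 7 of 16 alternatives, among them FPKM as deposited (-0.02) and quantile normalization (-0.02).

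Slc7a5 encodes LAT1, the light chain of the leucine transporter that carries the substrate across the membrane (ENSMUSG00000040010, chr8:121881146-121907686), and it had the greatest increase of the 10 genes. The GC pools had 56.1, 57.0 and 55.9 TPM, and the naive pools 23.0, 21.5 and 25.3 TPM. The GC pools agreed closely with each other (coefficient of variation 1.04%) and all lay more than 2-fold above each naive pool. The mean was 2.42-fold higher in GC B cells (56.3 ± 0.584 against 23.3 ± 1.92 TPM, SD, n = 3). The log2 difference was 1.24 (SE 0.07, 95% interval 1.07 to 1.42, limma adjusted p = 1.44e-05), and it was between 1.16 and 1.30 in all 16 alternatives. The plasma cell genes Jchain and Prdm1 were also higher in the GC pools while Sdc1 and Xbp1 were lower there, and the part of plasma cells in this difference was not tested.

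Slc3a2 encodes CD98, the heavy chain that brings LAT1 and other light chains to the cell surface (ENSMUSG00000010095, chr19:8706882-8723369), and it did not move with Slc7a5. Its values were 54.4, 50.05 and 53.6 TPM in GC and 58.0, 61.3 and 57.6 TPM in naive pools. All GC pools were below all naive pools, but by little, with a ratio of means of 0.894. The log2 difference was -0.16 (SE 0.06, 95% interval -0.30 to -0.02) and passed the test narrowly (limma adjusted p = 0.0445). The call was lost when any 1 of the 6 pools was left out (limma adjusted p between 0.0525 and 0.134). It was also lost when limma was run without a trend (limma adjusted p = 0.0753) or with a block on the replicate number (limma adjusted p = 0.11). The direction was kept in all 16 alternatives.

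In naive B cells the heavy chain was the more abundant RNA per length, with a Slc7a5 to Slc3a2 ratio of 0.397, 0.351 and 0.440. In GC B cells the RNAs were near equal, with a ratio of 1.03, 1.14 and 1.04. The log2 difference of the ratio was 1.44, the pools did not overlap, and the exact two-sided permutation test gave its smallest p of 0.1 before and after adjustment over 5 ratios.

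Sesn1 encodes sestrin 1, a stress-induced protein of the family that restrains mTORC1 through the GATOR complexes (ENSMUSG00000038332, chr10:41810574-41908436), and it had the greatest change of the 10 genes. The 3 GC pools had 25.1, 26.1 and 26.5 TPM, whereas the naive pools had 73.0, 78.9 and 68.2 TPM. The populations lay far apart, and naive B cells had 2.84-fold more Sesn1 RNA (25.9 ± 0.738 against 73.4 ± 5.33 TPM, SD, n = 3). The log2 difference was -1.47 (SE 0.07, 95% interval -1.63 to -1.30, limma adjusted p = 5.67e-06), and it was between -1.66 and -1.41 in all 16 alternatives. Among the genes tested, Sesn1 was above 57.5% in GC and above 83.7% in naive pools. Of 8 epithelial markers tested, 6 were lower in GC pools as Sesn1 was, and 1, Krt18, was higher, and their part in this difference was not tested.

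The 3 sestrin genes did not move alike. Sesn2, a leucine sensor of the family, was low in both populations (GC 4.22 ± 0.236 TPM, naive 3.54 ± 0.574 TPM, SD, n = 3) and did not pass the test (log2 difference 0.21, limma adjusted p = 0.204, and between 0.12 and 0.30 with 1 pool left out). Sesn3 was higher in GC B cells, at 82.5 ± 4.49 TPM against 44.2 ± 6.48 TPM (SD, n = 3, log2 difference 0.90, limma adjusted p = 0.000551). The ratio of Sesn1 to Sesn3 was therefore 0.293, 0.337 and 0.313 in the GC pools and 1.49, 1.70 and 1.85 in the naive pools. Sesn3 was the main sestrin RNA in each GC pool and Sesn1 in each naive pool, and the log2 difference of the ratio was -2.41 (exact permutation test, p = 0.1 before and after adjustment). The Sesn1 to Sesn2 ratio was between 5.85 and 6.65 in GC and between 19.0 and 22.7 in naive B cells, a log2 difference of -1.77 with the same exact p.

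Because Sesn1 differed most, the 250 bases before each of its starts in RefSeq (GRCm38.p6) are shown, 5′ to 3′. The first window is chr10:41810324-41810573 and the second chr10:41887189-41887438, both on the plus strand.
Sesn1 first start: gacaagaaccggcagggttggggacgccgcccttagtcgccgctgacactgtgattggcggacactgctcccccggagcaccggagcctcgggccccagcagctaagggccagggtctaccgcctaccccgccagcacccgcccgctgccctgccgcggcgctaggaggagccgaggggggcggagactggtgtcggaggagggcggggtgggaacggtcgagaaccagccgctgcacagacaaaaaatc
Sesn1 second start: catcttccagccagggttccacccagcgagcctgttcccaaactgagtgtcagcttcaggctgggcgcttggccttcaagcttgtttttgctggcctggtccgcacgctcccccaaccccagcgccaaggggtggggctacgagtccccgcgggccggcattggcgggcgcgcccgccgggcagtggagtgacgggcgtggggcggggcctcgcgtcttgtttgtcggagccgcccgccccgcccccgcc
Windows were searched on both strands for the FOXO motif GTAAACA, the E-box CACGTG that MITF and TFE factors bind, and the amino acid response motif TGATGNAA, none of which contains another. Of 32851 windows of this length before mouse starts, 3.17% held GTAAACA, 6.02% CACGTG and 3.45% TGATGNAA. Neither Sesn1 window held any of them. The table had 9 windows for 8 of the 10 genes (none for Slc7a5 or Eif4ebp1), and the only match among them was a CACGTG before Rheb. A match is a description of the letters in this window.

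The order of the 10 genes by level, in TPM and so per transcript length, differed between populations. In GC B cells Rheb (60.2), Slc7a5 (56.3) and Slc3a2 (52.7) led, followed by Sesn1 (25.9), Eif4ebp1 (25.3), Tsc1 (22.3), Tsc2 (22.2), Mtor (17.9), Rptor (12.9) and Rictor (9.45). Among neighbours in this order, Slc7a5 and Slc3a2, Slc3a2 and Sesn1, and Rptor and Rictor had pools that did not overlap, and the other neighbours overlapped. In naive B cells the order was Sesn1 (73.4), Slc3a2 (59.0), Rheb (49.5), Eif4ebp1 (24.6), Slc7a5 (23.3), Tsc2 (20.6), Mtor (19.7), Rictor (15.4), Rptor (14.3) and Tsc1 (14.2). There, Eif4ebp1 and Slc7a5, Tsc2 and Mtor, Rictor and Rptor, and Rptor and Tsc1 overlapped. Sesn1 thus led in naive B cells and came after Rheb, Slc7a5 and Slc3a2 in GC B cells.

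The other genes of the pathway were followed in 6 lists. Together 98 of their 112 genes with a value were tested and 66.3% were called, 42 higher and 23 lower in GC B cells, with a median log2 difference of 0.07 against 0.03 for all genes tested. This share is close to the 65.6% of all genes tested. For the counts of each list that follow, the shares over all genes tested were 35.5% higher and 30.1% lower.

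**Figure D3:**
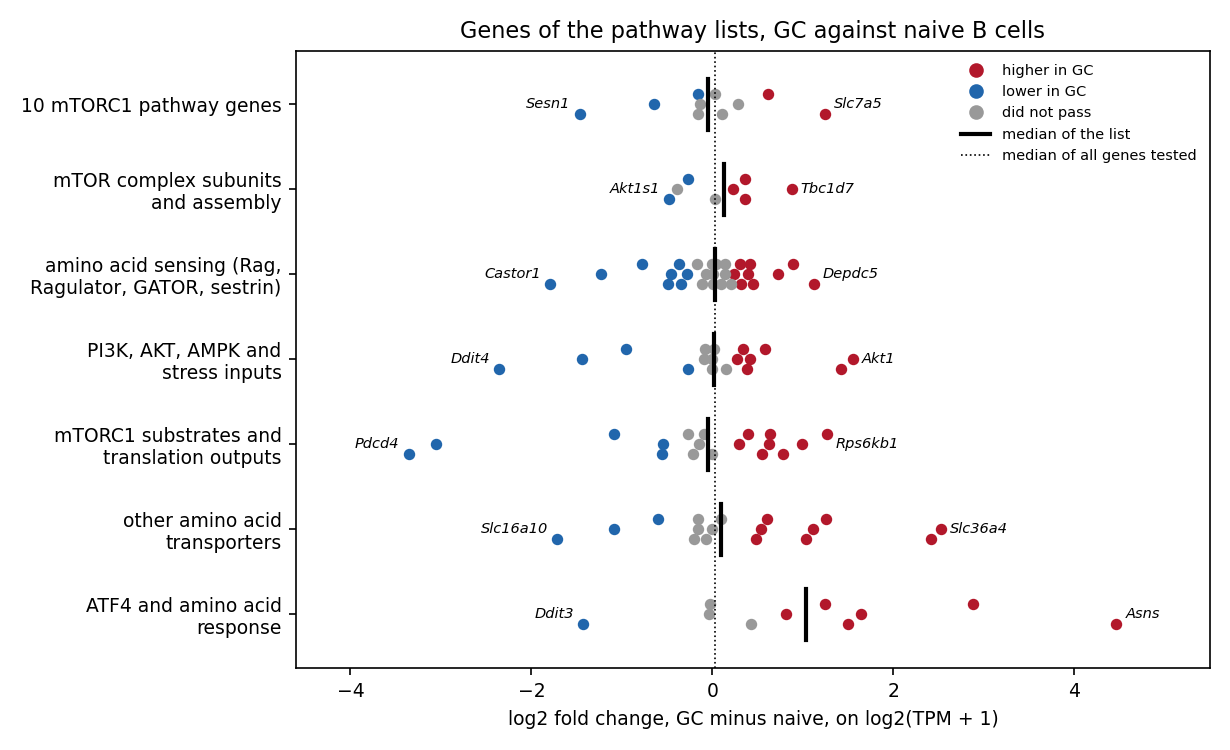
Log2 difference, GC minus naive, for each tested gene of the 10 mTORC1 pathway genes and of 6 further lists, coloured by the limma call, with the median of each list as a black bar and that of all genes tested (0.03) as a dotted line. The medians of 5 lists lie between -0.05 and 0.13, while that of the ATF4 list is 1.03, with Asns farthest to the right and Pdcd4 farthest to the left.

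Among the partners in the mTOR complexes and their assembly factors, 4 of 8 tested genes were higher and 2 lower in GC B cells (median log2 difference 0.13). Mlst8, a subunit shared by both complexes, was at 17.3 ± 1.17 and 17.0 ± 0.291 TPM (SD, n = 3) and did not pass (log2 difference 0.03, which was below 0 under 5 of 16 alternatives, FPKM as deposited among them). Akt1s1, the inhibitory subunit PRAS40 of mTORC1, was lower in GC B cells (log2 difference -0.48, limma adjusted p = 0.00296). Prr5, or Protor-1, a subunit of mTORC2, was higher (0.36, limma adjusted p = 0.000567), in the opposite direction to Rictor. Tbc1d7, the small subunit of the TSC complex, was at 9.0 ± 1.22 against 4.45 ± 0.744 TPM (SD, n = 3) and so was higher together with Tsc1 (0.88, limma adjusted p = 0.0021). The assembly factors Tti1 (0.36, limma adjusted p = 0.0147) and Telo2 (-0.27, limma adjusted p = 0.0215) were called in opposite directions. The call of Telo2 was lost without GC replicate 1, GC replicate 3 or naive replicate 2, and the count of lower genes was 1 without GC replicate 1 or without naive replicate 2.

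Of 28 tested genes that relay amino acid signals to mTORC1, 9 were higher and 8 lower in GC B cells (median log2 difference 0.03). Rraga, the Rag GTPase that brings mTORC1 to the lysosome, was 1.66-fold higher (164.4 ± 3.30 against 99.1 ± 1.44 TPM, SD, n = 3, limma adjusted p = 1.13e-05). Depdc5, a subunit of the inhibitory GATOR1 complex, was 2.22-fold higher (55.4 ± 5.25 against 24.9 ± 3.21 TPM, SD, n = 3, limma adjusted p = 0.000182). Castor1, the arginine sensor, was lower in GC pools, at 0.859 ± 0.116 TPM, against 5.45 ± 0.731 TPM in naive pools (SD, n = 3, log2 difference -1.79, limma adjusted p = 4.84e-05). Its relative Castor2 was lower too, at levels near 1 TPM (-0.78, limma adjusted p = 0.00717). Rragd was called lower (-1.24, limma adjusted p = 0.0402) from values between 0.0836 and 4.67 TPM. The call was lost without GC replicate 1, GC replicate 3, naive replicate 1 or naive replicate 3 (where the difference was -0.81). It was also lost with no filter on low values (limma adjusted p = 0.0707) and with a block on the replicate number (limma adjusted p = 0.0738). The count of lower genes was 5 without GC replicate 3, without naive replicate 1 or with a filter at 5 TPM.

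Of 17 tested genes of the PI3K, AKT and AMPK inputs, 7 were higher and 4 lower (median log2 difference 0.02). Akt1, a kinase that relieves the TSC brake and is itself phosphorylated by mTORC2, was 2.95-fold higher in GC B cells (291.7 ± 3.74 against 98.9 ± 0.831 TPM, SD, n = 3, limma adjusted p = 3.53e-07). Ddit4, or REDD1, a stress-induced inhibitor of mTORC1, was lower in GC B cells as was Sesn1, at 20.7 ± 0.740 against 111.7 ± 22.6 TPM (SD, n = 3, log2 difference -2.36, limma adjusted p = 1.51e-05). Pik3cb (1.42) and Stk11 (0.59) were higher as well, and Prkab2 (-0.96) was lower.

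Of 18 tested mTORC1 substrates and translation factors, 8 were higher and 5 lower (median log2 difference -0.05). Rps6kb1, the S6 kinase, was 2.47-fold higher in GC B cells (71.5 ± 9.20 against 28.9 ± 1.53 TPM, SD, n = 3, limma adjusted p = 6.98e-05). Eif4ebp2, the paralogue of Eif4ebp1, was higher (123.7 ± 1.51 against 79.7 ± 5.80 TPM, SD, n = 3, log2 difference 0.63, limma adjusted p = 0.000169), where Eif4ebp1 was not called. The largest decreases in this list were those of Pdcd4 and Eef2k. Pdcd4, an inhibitor of the helicase Eif4a1, was at 8.96 ± 2.75 against 98.6 ± 3.18 TPM (SD, n = 3, log2 difference -3.36, limma adjusted p = 1.34e-05). Eef2k, the kinase that halts elongation, was at 0.572 ± 0.110 against 12.2 ± 2.44 TPM (SD, n = 3, -3.06, limma adjusted p = 9.09e-06). Eif4a1 itself (1.72-fold) and the autophagy kinase Ulk1 (2.09-fold) were higher, and Lpin1 (log2 difference -1.09) was lower. Rps6, the ribosomal protein that S6 kinase phosphorylates, varied between 51.9 and 110.9 TPM among the GC pools and did not pass (-0.22, limma adjusted p = 0.504, and 0.08 without GC replicate 1). Rps6 has many processed copies in the genome, which can make its reads uncertain, and their part in this spread was not tested.

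**Figure D4:**
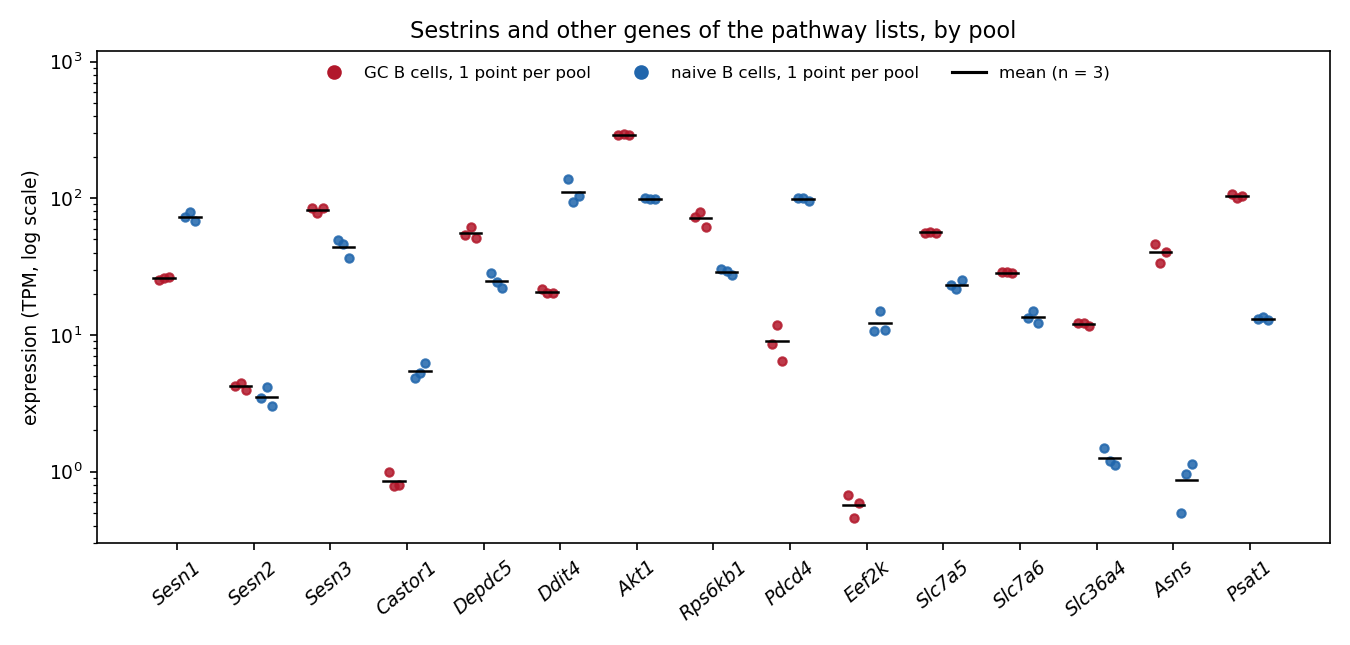
Expression in TPM, on a log axis, of the sestrins, Slc7a5 and further genes of the lists, with 1 point per pool (GC in red, naive in blue) and the mean of 3 pools as a bar. Sesn1 and Sesn3 change places between the populations, Akt1 is higher in each GC pool, and Asns is near 40 TPM in GC pools and near 1 TPM in naive pools.

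Of 17 tested amino acid transporters other than the Slc7a5 pair, 8 were higher and 3 lower (median log2 difference 0.09). The count of lower genes was 5 without naive replicate 3 and under FPKM as deposited, quantile normalization or the GC content and length correction. Slc7a6, another light chain of Slc3a2, was 2.13-fold higher in GC B cells (28.6 ± 0.219 against 13.5 ± 1.33 TPM, SD, n = 3, limma adjusted p = 7.35e-05). A further light chain, Slc7a7, was also higher (1.25, limma adjusted p = 4.98e-05), and so both light chains moved in the direction of Slc7a5 while Slc3a2 did not. The largest increases were those of Slc36a4 (12.0 ± 0.322 against 1.27 ± 0.195 TPM, SD, n = 3, log2 difference 2.52, limma adjusted p = 4.1e-06) and Slc43a3 (35.0 ± 3.02 against 5.73 ± 0.633 TPM, SD, n = 3, 2.42, limma adjusted p = 4.08e-06). Slc43a3 belongs to the family of the LAT3 and LAT4 transporters by sequence and is known to carry purine nucleobases. The lower genes were Slc16a10 (-1.71), Slc38a7 (-1.08) and Slc36a1 (-0.60). The glutamine transporter Slc1a5 was high and near equal, at 322.1 ± 21.9 and 301.7 ± 14.6 TPM (SD, n = 3, log2 difference 0.09, limma adjusted p = 0.248, and between 0.05 and 0.15 with 1 pool left out). Slc38a2 did not pass either (-0.20, limma adjusted p = 0.123), but was called lower without naive replicate 3 (-0.30, limma adjusted p = 0.0143) and under FPKM as deposited, quantile normalization and the GC content and length correction.

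The ATF4 list holds the factor that cells deprived of amino acids translate, the upstream kinase GCN2 (Eif2ak4) and genes of the amino acid response, among them known ATF4 targets, Slc7a5 and Slc3a2 being other known targets. Here 6 of 10 genes were higher and 1 lower in GC B cells, against 35.5% and 30.1% of all genes tested. The 7 of 10 called were near the 65.6% called over all genes tested. The median log2 difference of the list was 1.03, against 0.03 for all genes tested. Atf4 itself was at 202.3 ± 16.1 and 207.3 ± 4.92 TPM (SD, n = 3) and did not pass (-0.04, limma adjusted p = 0.631, and 0.02 without GC replicate 2). Asns, asparagine synthetase, measured 46.4, 33.6 and 40.5 TPM across the GC pools but 0.50, 0.958 and 1.14 TPM across the naive pools, a log2 difference of 4.47 (limma adjusted p = 2.9e-06). Psat1, of serine synthesis, was 7.86-fold higher (103.6 ± 3.28 against 13.2 ± 0.401 TPM, SD, n = 3, limma adjusted p = 2.28e-07). Chac1, a glutathione-degrading enzyme, was low, at 2.54 ± 1.02 against 0.106 ± 0.0665 TPM (SD, n = 3, log2 difference 1.64, limma adjusted p = 0.000779). Ddit3, or CHOP, a stress factor downstream of ATF4, went the other way, at 18.2 ± 2.51 against 50.6 ± 3.56 TPM (SD, n = 3, -1.43, limma adjusted p = 5.06e-05).

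Among 13 windows before the starts of the 10 ATF4 list genes, 2 held TGATGNAA, those of Asns and Chac1, and none held the other motifs. They are shown from RefSeq (GRCm38.p6), 5′ to 3′ in the direction of the gene, with the match in capitals. The Asns window is chr6:7693210-7693459 on the minus strand and holds the motif on the gene's own strand, from base 23 to base 16 before the start. The Chac1 window is chr2:119350992-119351241 on the plus strand and holds it on the opposite strand, from base 193 to base 186 before the start.
Asns: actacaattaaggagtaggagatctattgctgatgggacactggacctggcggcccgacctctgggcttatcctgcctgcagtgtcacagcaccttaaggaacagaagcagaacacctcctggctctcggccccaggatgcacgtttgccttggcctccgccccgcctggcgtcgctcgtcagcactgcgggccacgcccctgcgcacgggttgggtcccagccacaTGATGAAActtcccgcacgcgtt
Chac1: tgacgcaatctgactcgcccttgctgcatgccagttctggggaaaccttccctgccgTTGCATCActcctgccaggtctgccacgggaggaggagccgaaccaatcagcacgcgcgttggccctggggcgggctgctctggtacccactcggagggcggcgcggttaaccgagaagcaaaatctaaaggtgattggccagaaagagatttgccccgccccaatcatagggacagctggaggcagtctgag
Asns and Chac1 were both higher in GC B cells, as were 4 genes of the list without a match.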

How the data were processed

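RNA-Seq was made by the study from 6 pools, 3 of GC and 3 of naive B cells. Per the submitters' processing notes and the methods, the authors trimmed reads with cutadapt 1.9, quantified them on the mouse transcriptome (NCBIm38, Ensembl release 75) with RSEM 1.2.25 (fragment length 180, SD 50) and deposited 1 FPKM value for each gene in each pool. Pools with the same number were not stated to share mice. RSEM divides reads between similar genes by its model, so multigene families are less certain, and FPKM depends on the assigned transcript length.

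The deposited FPKM values were divided by their pool's total and multiplied by 1000000 to give TPM. Between 58.3% and 67.7% of low values lay within 0.1 of a whole read, so the depths are rough, and tests for counts were not applied. limma 3.58.1 in R 4.3.3 (lmFit, eBayes with trend) compared GC with naive pools on log2(TPM + 1), two-sided, for genes at 1 TPM or more in 3 or more pools, and was tested on simulated data. Ratios within a pool were compared with an exact permutation test. Other steps ran in Python 3.11.15 (pandas 2.3.3, numpy 2.4.6, matplotlib 3.10.9, scipy 1.17.1). Names came from the NCBIM37 annotation (33398 of 39179 identifiers), with 10 list genes matched by an older symbol and 2 (Tti2, Ighd) not matched. Gene positions and sequences are those of RefSeq, GRCm38.p6.

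The 10 genes and all lists were chosen with earlier results of these data known. From each further list, up to 3 called genes in each direction with the largest log2 differences are named, and 11 partners whatever their values (Mlst8, Tbc1d7, Sesn2, Sesn3, Eif4ebp2, Rps6kb1, Rps6, Slc1a5, Slc38a2, Slc7a6 and Atf4). Some genes that this rule names are not reported here. Alternatives covered the pseudocount (0.1), the low-value filter (none, or 5 TPM), FPKM as deposited, quantile normalization, median ratio scaling, the replicate block, limma without the trend, each pool left out in turn, and, chosen after seeing the data, a correction for GC content and length with and without the block.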

Additional observations from a re-analysis of the deposited data

How the results depend on the processing

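Under 16 alternatives, Slc7a5, Tsc1, Rictor and Sesn1 kept their direction and their call. The count of all genes called was 8392 and ranged from 7656 to 8101 with 1 pool left out and from 7180 to 8639 under the other alternatives. The number of the 10 genes called higher stayed at 2, with 3 under the replicate block, and the number called lower was 3, or 2 with any pool left out, without the trend and under the replicate block. Pools with the same number had correlations of their deviations of 0.08, 0.02 and 0.05, and naive replicate 2 correlated more with GC replicate 3 (0.03), so the numbers were not used as pairs. With the replicate block 7960 genes were called, Rheb passed (limma adjusted p = 0.0298) and Slc3a2 (limma adjusted p = 0.11) and Rragd (limma adjusted p = 0.0738) did not. Signs turned only for 5 genes that did not pass the test. Eif4ebp1 was -0.016 with FPKM as deposited, -0.022 with quantile normalization and -0.052 with the GC content and length correction, with or without the replicate block, and ranged from -0.069 to 0.152 with 1 pool left out (-0.069 without GC replicate 1, -0.029 without naive replicate 1, -0.020 without naive replicate 2). Mlst8 was -0.024, -0.052 and -0.004 under FPKM, quantile normalization and median ratio scaling, -0.005 without GC replicate 1 and -0.000 without GC replicate 3, with a range of -0.005 to 0.079 over pools left out. Mtor was 0.026 without GC replicate 3 and otherwise down to -0.308, Rps6 was 0.078 without GC replicate 1 and down to -0.462 without GC replicate 2, and Atf4 was 0.016 without GC replicate 2 and down to -0.097 without GC replicate 1. The GC content and length correction, which used 86.3% of the genes tested, moved the median of all genes from 0.03 to -0.08, and the cause was not tested. Of 1081 values, from 71 results each recomputed under the alternatives that apply to it, 1033 kept their direction and side of the threshold or, for counts, were within 1.5 times the reported count. Without counts, depth limits mainly genes near 1 TPM, such as Castor2, Chac1 and Rragd.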
